A study of Mus musculus with 15 samples.

Results

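Striatal dissections rich in a marker of cortical neurons were compared with the other dissections of the same series of mice. The 5 high libraries were chosen by their measured level of Slc17a7, above 110 CPM (counts scaled to the total of all gene counts in the library), and the 10 low libraries are the rest of the 15 in all. The mice were wild-type males of the outbred ICR stock, and the striatum was taken and frozen at 7 weeks of age. Their founders (F0), 6 weeks old at the first dose, received methamphetamine (METH, a psychostimulant) at 5 mg/kg or saline at 10 mL/kg under the skin for 21 days, and were then mated with females given no drug. F1 mice were the founders' sons. Mating F1 males with females given no drug gave the F2 sons, so no sequenced mouse was itself dosed. The high class held replicates 1 and 3 of 4 F1 saline mice, replicate 3 of 3 F1 METH mice, replicate 4 of 4 F2 saline mice and replicate 2 of 4 F2 METH mice. By lineage that was 3 of 8 saline and 2 of 7 METH libraries, and by generation 3 of 7 F1 and 2 of 8 F2 libraries. No label says which mice share a litter or a founder, and the labels name the cell type as neuronal although whole striatal tissue was taken. Animal numbers in the labels recur between F1 and F2, namely 1, 3, 6 and 7 in saline and 2 and 9 in METH mice. Whether they link mice is not said, and they were not used.

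Slc17a7 encodes the vesicular glutamate transporter VGLUT1, which loads glutamate into synaptic vesicles of excitatory neurons of the cortex, hippocampus and related regions. The striatum lies directly under the cortex and the external capsule. Its principal cells, the spiny projection neurons, are GABAergic and carry little of this transcript in their own cell bodies. Cortical axons end in the striatum in large numbers, but the cell bodies that hold most of their RNA lie outside it. Slc17a7 is used as a marker of cortical excitatory neurons, and Drd1, Drd2, Ppp1r1b and related genes as markers of spiny projection neurons. What tissue each dissection held was not measured, and its part in the differences between libraries was not tested.

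In the high libraries, Slc17a7 (gene ID 72961, GRCm38 chromosome 7, 45163921 to 45176139) stood at 538 CPM of all counts in F1 saline replicate 3, 392 in F1 METH replicate 3, 320 in F1 saline replicate 1, 189 in F2 saline replicate 4 and 129.6 in F2 METH replicate 2. In the low libraries it ran from 9.53 to 98.99 CPM. The last of the high libraries, F2 METH replicate 2 at 129.6 CPM, and the first of the low libraries, F1 saline replicate 2 at 98.99 CPM, lie close on either side of the threshold. The low libraries were not uniform. In 4 of them Slc17a7 was at 55.5 CPM or more (F1 saline replicate 2, F2 METH replicates 3 and 4 and F2 saline replicate 3), and in the other 6 it was at 30.3 CPM or less. These values set the classes, so they are a description and no test was made on them.

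**Figure D1:**
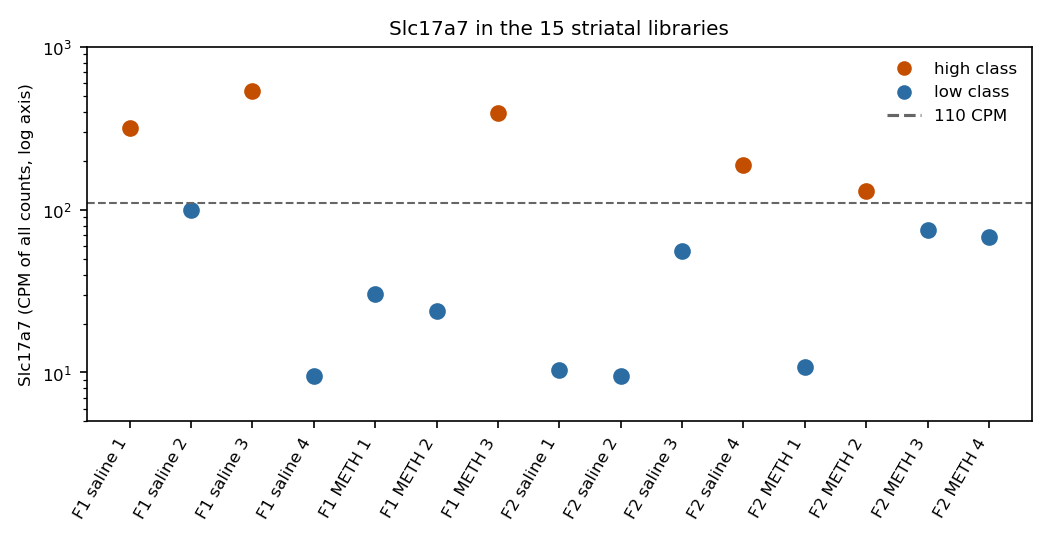
Slc17a7 in each of the 15 libraries, in CPM of all counts on a log axis; orange points are the 5 high and blue points the 10 low libraries, and the dashed line is the threshold of 110 CPM. The 3 high F1 libraries lie at 320 CPM and above, the 2 high F2 libraries at 189 and 129.6 CPM, and the low libraries spread from 9.53 to 98.99 CPM.

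Sequencing depth and library quality overlapped between the classes. Total counts ran from 33454786 to 47199267 in the high and from 31563806 to 50573906 in the low libraries. Genes with at least 10 counts numbered 18152 to 18804 in the high and 17735 to 18524 in the low libraries, and mitochondrially encoded transcripts took 6.27% to 8.53% and 5.99% to 8.39% of counts. F2 saline replicates 2 and 3, both low, had the highest means of the heat shock list (7.18 and 7.04 on a log2 CPM scale, against 6.26 to 6.79 in the other libraries). F1 saline replicate 4, also low, had the highest haemoglobin list mean (6.69, against 2.97 to 4.56 elsewhere).

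Across the transcriptome the high libraries differed from the low ones more often by higher than by lower values. Differences are log2(high/low) from a model of the counts with the 4 groups as a block. A gene was counted as higher when the difference was at least 1.5-fold and every high library exceeded every low library within each of the 4 groups. Of 19308 genes with enough counts, 199 (1.03%) were counted as higher and 8 (0.0414%) as lower. Slc17a7, which set the classes, is itself 1 of the 199. Of the higher genes 148 encode proteins, 120 differed at least 2-fold, 55 at least 4-fold, and 104 had a mean of at least 5 CPM in the high libraries. In all, 103 genes, Slc17a7 included, had all 5 high libraries above all 10 low ones. The median of all genes was -0.0076, 47.97% of genes had a positive difference, and 78.36% lay within 0.25 log2 units of 0.

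The size of both counts depended on which libraries had to be ordered. Without F2 METH replicate 2, the high library with the least Slc17a7, 408 genes were counted as higher, among them 192 of the 199. The 8 lower genes became 14 without F1 METH replicate 1, F1 METH replicate 2 or F2 METH replicate 4. They became 15 without F1 saline replicate 3, 16 without F1 saline replicate 1 or 4, and 23 without F1 saline replicate 2. They became 32 without F2 saline replicate 4, 33 without F1 METH replicate 3 and 72 without F2 METH replicate 2. In each generation alone, with fewer libraries to order, 643 genes were higher and 270 lower in F1, and 379 higher and 151 lower in F2. The classes were drawn from these same libraries, so none of the counts carries a test.

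Among the largest differences were those of transcription factors of cortical excitatory neurons. From here on, CPM are scaled by TMM (trimmed mean of M values) factors. Neurod6 (gene ID 11922, chromosome 6, 55677818 to 55681263), a basic helix-loop-helix factor of cortical and hippocampal projection neurons, was at 25.6 CPM in F1 saline replicate 3, 16.4 in F1 METH replicate 3, 11.4 in F1 saline replicate 1, 5.93 in F2 saline replicate 4 and 4.21 in F2 METH replicate 2. In the low libraries it was at 0.236 to 2.30 CPM with a median of 0.914, so the classes did not overlap. The log2 difference was 3.23 (SE 0.40).

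Tbr1 (gene ID 21375, chromosome 2, 61802863 to 61814114), a T-box factor of glutamatergic cortical neurons, was at 54.6, 38.55, 27.7, 19.3 and 15.01 CPM in the high libraries in the same order. Its low values were 1.23 to 11.1 CPM with a median of 2.44, and the log2 difference was 2.71 (SE 0.50). For Neurod6 and Tbr1 every high library exceeded every low one, and the order of the 5 high libraries was that of Slc17a7. Neurod2, a relative of Neurod6, was at 7.73 to 31.9 CPM in the high and 0.341 to 5.65 CPM in the low libraries (log2 difference 2.89, SE 0.54).

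Of the list of 17 cortical excitatory neuron genes other than Slc17a7, 16 had a positive difference, 9 were counted as higher and 0 as lower, and the median log2 difference was 2.53. Among the 9 were Neurod6, Neurod2, Rtn4rl2, Tbr1, Emx1, Bhlhe22, Hs3st2 and Nptx1. Emx1, a homeobox factor of the developing cortex, was at 1.13 to 6.74 CPM in the high and 0.0590 to 1.06 CPM in the low libraries. Nptx1, neuronal pentraxin 1, is more widely expressed, and its difference was 0.98 (SE 0.17). The list median was 3.12 in F1 alone and 1.25 in F2 alone, and the difference in list means was 2.24 in F1 saline, 2.33 in F1 METH, 1.61 in F2 saline and 0.94 in F2 METH mice (SD of the 4 groups 0.65). The difference between generations was not tested. The rule did not use the genes of this list. The list means of the 5 high libraries (3.99 to 5.52) all exceeded those of the 10 low libraries (2.13 to 3.61). The name cortex-rich rests on this list. List means of cortical layers overlapped, with the lowest high against the highest low library at 3.83 and 4.07 (layers 2 to 4), 3.31 and 3.47 (layer 5), and 4.08 and 4.24 (layer 6).

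**Figure D2:**
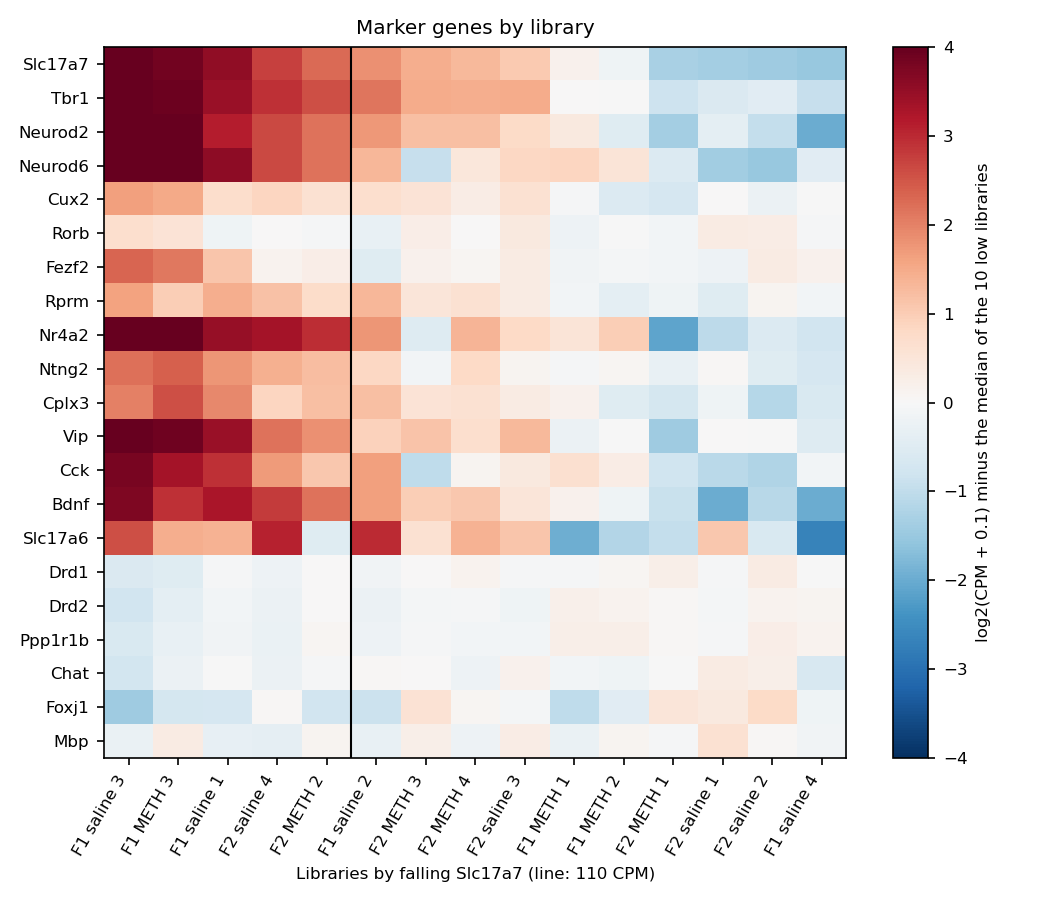
Log2(CPM + 0.1) of 21 marker genes minus the median of the 10 low libraries, with libraries ordered by falling Slc17a7 and a line at 110 CPM. The rows from Slc17a7 to Neurod6, Nr4a2 and Bdnf are red in all 5 high libraries, Rorb is pale throughout, Fezf2 is red only in the 3 high F1 libraries, and Drd1, Drd2 and Ppp1r1b are pale blue in F1 saline replicate 3 and F1 METH replicate 3.

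Among the genes that did not enter the rule, the pattern over the 15 libraries most like that of Slc17a7 was that of Tbr1 (Pearson r = 0.995 of within-group centred log2 CPM, n = 15 libraries). Rtn4rl2 (0.988), a homologue of the Nogo receptor, Neurod2 (0.986), Slc30a3 (0.985), the zinc transporter of glutamatergic vesicles, and Nrn1 (0.978), encoding neuritin, followed. Sidt1, Kcnj6, Doc2a, Rtn4r and Igfn1 completed the 10 most alike genes, down to 0.971. The points share the libraries and depth from which the classes were drawn, so these are descriptions.

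Lists of genes of single cortical layers had few counted members, and the lists were not tested against each other. Of 10 genes of layers 2 to 4, 8 had a positive difference and 1, Cux2, was counted as higher (list median 0.23, 0.41 without F2 METH replicate 2). Cux2 (gene ID 13048, chromosome 5, 121857962 to 122050415), a homeobox factor of upper layers, was at 58.8 CPM in F1 saline replicate 3, 54.0 in F1 METH replicate 3, 34.3 in F2 saline replicate 4, 31.1 in F1 saline replicate 1 and 28.7 in F2 METH replicate 2, against 11.8 to 30.3 CPM in the low libraries (log2 difference 0.94, SE 0.24). The classes overlapped over all libraries, although not within any group. Rorb, a nuclear receptor of layer 4 neurons, was at 15.1 to 27.2 CPM in the high and 13.9 to 22.4 CPM in the low libraries (0.19, SE 0.15).

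Of 10 layer 5 genes, 6 were positive and 0 were counted as higher or lower (median 0.08). With 1 library left out the layer 5 median ran from -0.032 (without F1 METH replicate 3) to 0.16 (without F1 saline replicate 2). Fezf2 (gene ID 54713, chromosome 14, 12338992 to 12346803), the factor that specifies subcerebral projection neurons of layer 5, was at 11.8 CPM in F1 saline replicate 3, 10.2 in F1 METH replicate 3 and 5.05 in F1 saline replicate 1. It was at 2.52 CPM in F2 saline replicate 4 and 2.80 in F2 METH replicate 2, within the 1.63 to 2.92 CPM of the low libraries. The 3 high F1 libraries thus stood above all others and the 2 high F2 libraries did not, and the log2 difference was 2.09 in F1 alone and 0.11 in F2 alone. Of 8 layer 6 genes, 5 were positive and 1, Rprm, was counted as higher (list median 0.32, 0.18 without F1 saline replicate 3). Rprm, a p53-induced gene used as a marker of deep layers, was at 11.6 to 21.5 CPM in the high and 4.95 to 17.6 CPM in the low libraries (0.88, SE 0.21). Tle4, a corepressor of layer 6 neurons that striatal neurons also express, was at 74.1 to 106 CPM in the high and 84.2 to 143 CPM in the low libraries.

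Genes of the claustrum, endopiriform nucleus and subplate, cell groups at the inner face of the cortex beside the striatum, were among those counted most often. Of 9 such genes, 7 had a positive difference and 4 were counted as higher (Nr4a2, Ntng2, Cplx3 and Ccn2), with a list median of 0.26. That median was 0.43 without F1 saline replicate 2. Nr4a2 (gene ID 18227, chromosome 2, 57106830 to 57124003), an orphan nuclear receptor and the best known marker of the claustrum, was at 39.8 CPM in F1 saline replicate 3, 37.8 in F1 METH replicate 3, 26.3 in F1 saline replicate 1, 23.5 in F2 saline replicate 4 and 18.2 in F2 METH replicate 2. The low libraries ran from 0.449 to 7.95 CPM with a median of 2.41, so the classes were apart, and the log2 difference was 3.05 (SE 0.44). Unlike Fezf2, its difference was 3.01 in F1 alone and 3.10 in F2 alone.

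Ntng2, encoding netrin-G2, was at 13.6 to 30.6 CPM in the high and 3.57 to 10.3 CPM in the low libraries (1.69, SE 0.25). Cplx3, a complexin of subplate neurons, was at 2.52 to 8.60 CPM in the high and 0.561 to 3.20 CPM in the low libraries (1.59, SE 0.35). Ccn2, a secreted matricellular protein used as a marker of layer 6b, was at 7.02 to 18.0 and 2.88 to 13.9 CPM (0.63, SE 0.18), with overlap between the classes over all libraries.

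Set against Slc17a7 itself, the mix of genes differed from library to library. Per 100 CPM of Slc17a7, Tbr1 was nearly constant in the high libraries, at 8.65 CPM in F1 saline replicate 1, 10.3 in F1 saline replicate 3, 9.77 in F1 METH replicate 3, 10.5 in F2 saline replicate 4 and 11.6 in F2 METH replicate 2. Nr4a2 was at 8.19, 7.53 and 9.57 CPM per 100 CPM of Slc17a7 in the high F1 libraries and at 12.9 and 14.0 in the high F2 libraries. Cck went the other way, with 20.9, 23.5 and 22.8 in F1 and 15.95 and 14.4 in F2. The 2 generations did not overlap in either ratio among the high libraries, but overlapped in both once the low libraries were included. Neither difference was tested.

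The low library F2 METH replicate 3 had 74.5 CPM of Slc17a7 and 6.98 CPM of Tbr1, or 9.37 per 100, a ratio inside the range of the high libraries. Its Neurod6 was at 0.546 and its Nr4a2 at 2.1 CPM per 100 CPM of Slc17a7, each below the lowest high library (3.24 and 7.53). It was the lowest of the 15 libraries in both ratios but not the only low library under the high range: 6 of 10 low libraries were for Neurod6 and 3 of 10 for Nr4a2.

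Slc17a6 encodes VGLUT2, the vesicular glutamate transporter of thalamus, hypothalamus and parts of the amygdala. It was at 12.2 CPM in F2 saline replicate 4, 8.59 in F1 saline replicate 3, 3.94 in F1 METH replicate 3, 3.76 in F1 saline replicate 1 and 0.934 in F2 METH replicate 2. Among the low libraries it reached 11.5 CPM in F1 saline replicate 2 and was at 0.131 to 3.73 CPM in the other 9. The classes overlapped, and the log2 difference of 1.21 (SE 0.75) became 2.42 without F1 saline replicate 2. Of 9 thalamic genes 5 were positive and 0 were counted (median 0.05), and of 8 hippocampal genes 3 were positive and 0 were counted (median -0.07). Of 8 kept genes of the septum, pallidum and hypothalamus, 3 were positive and 0 were counted.

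Interneuron genes were counted only in the cortical-type list. Vip (gene ID 22353, chromosome 10, 5639193 to 5647617), vasoactive intestinal peptide of a cortical interneuron class, was at 12.3 CPM in F1 saline replicate 3, 7.998 in F1 METH replicate 3, 5.96 in F1 saline replicate 1, 2.41 in F2 saline replicate 4 and 1.87 in F2 METH replicate 2. The low libraries were at 0.106 to 1.25 CPM with a median of 0.451, without overlap, and the log2 difference was 2.98 (SE 0.52). Cck, the peptide cholecystokinin of cortical interneurons and many cortical excitatory neurons, was at 124, 90.02, 66.9, 29.2 and 18.7 CPM in the same order of libraries. It was at 3.81 to 13.7 CPM in 9 low libraries and at 27.7 CPM in F1 saline replicate 2, which lies above the high library F2 METH replicate 2.

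Of 10 genes of cortical-type interneurons, 7 were positive and 3 were counted as higher, Vip, Cck and Cort (list median 0.21, with 0.48 without F1 saline replicate 2, 0.12 without F1 saline replicate 4 and 0.14 without F1 METH replicate 2). Of 8 genes of interneurons that striatum and cortex share, 4 were positive and 0 were counted (median -0.01). Somatostatin (Sst) was at 181 to 205 CPM in the high and 153 to 218 CPM in the low libraries, and neuropeptide Y (Npy) at 68.4 to 92.7 and 61.7 to 85.9 CPM. Parvalbumin (Pvalb) was at 12.4 and 18.7 CPM in F1 METH replicate 3 and F1 saline replicate 3 but at 4.44 to 6.92 CPM in the other 3 high libraries, against 5.53 to 13.1 CPM in the low libraries.

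Genes of striatal neurons lay on the other side of 0, by small amounts. All 26 genes of the pan spiny projection neuron list had a negative difference, from -0.36 to -0.11 with a median of -0.23, and 0 were counted as lower. Ppp1r1b (gene ID 19049, chromosome 11, 98348406 to 98357796), encoding DARPP-32, the phosphatase regulator of dopamine signalling, was at 1344 CPM in F1 saline replicate 3, 1638 in F1 METH replicate 3, 1826 in F1 saline replicate 1, 1702 in F2 saline replicate 4 and 2147 in F2 METH replicate 2. The low libraries ran from 1763 to 2417 CPM with a median of 2030, so the classes overlapped, and the log2 difference was -0.25 (SE 0.10). In the authors' TPM, which divides by transcript length, Ppp1r1b was at 1691 to 2857 and Slc17a7 at 117 to 452 in the high libraries. Every high library therefore held more Ppp1r1b than Slc17a7 on that scale. Fewer cells of a type and less RNA per cell cannot be told apart in tissue libraries.

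Direct pathway neurons, which carry the dopamine D1 receptor, and indirect pathway neurons, which carry the D2 receptor, both had genes mostly below 0. Of 9 direct pathway genes 8 were negative (median -0.22), and of 7 indirect pathway genes 7 were negative (median -0.26, -0.17 without F1 METH replicate 3), with 0 counted in either list. Drd1 (gene ID 13488, chromosome 13, 54051183 to 54055658) was at 161 CPM in F1 saline replicate 3, 173 in F1 METH replicate 3, 234 in F1 saline replicate 1, 212 in F2 saline replicate 4 and 247 in F2 METH replicate 2, against 218 to 301 CPM in the low libraries (-0.26, SE 0.09). Drd2 was at 181 to 308 CPM in the high and 260 to 355 CPM in the low libraries (-0.26, SE 0.11). F1 saline replicate 3 and F1 METH replicate 3, the libraries with the most Slc17a7, were the lowest of the 15 for both receptors.

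**Figure D3:**
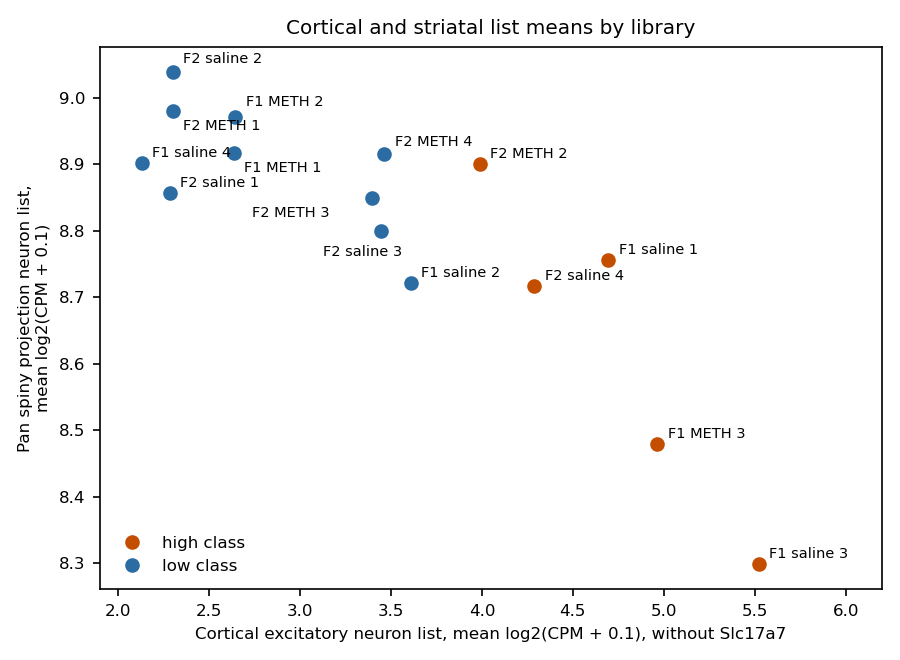
Mean log2(CPM + 0.1) of the 26 pan spiny projection neuron genes against that of the 17 cortical excitatory neuron genes other than Slc17a7, 1 point per library, orange for high and blue for low. The high libraries lie at 3.99 to 5.52 on the cortical axis and the low ones at 2.13 to 3.61; on the striatal axis F1 saline replicate 3 (8.30) and F1 METH replicate 3 (8.48) lie lowest, while F2 METH replicate 2 (8.90) lies within the range of the low libraries (8.72 to 9.04).

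Within groups, the difference in the mean of the spiny projection neuron list was -0.46 in F1 METH, -0.28 in F1 saline, -0.18 in F2 saline and -0.015 in F2 METH mice (SD 0.19). The list median was -0.33 in F1 alone and -0.11 in F2 alone. Cholinergic interneurons, the large acetylcholine-releasing cells of the striatum, followed the same sign: 8 of 8 genes were negative and 0 were counted (median -0.17, and -0.30 to -0.11 with 1 library left out, the ends without F1 saline replicates 1 and 3). Chat, the enzyme of acetylcholine synthesis, was at 16.5 to 27.0 CPM in the high and 17.4 to 34.3 CPM in the low libraries (-0.14, SE 0.13).

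Glia and vessels differed little. Of 18 mature oligodendrocyte genes 18 were negative (median -0.10), of 15 astrocyte genes 9 were positive (0.01), of 12 microglial genes 11 were positive (0.08) and of 12 endothelial genes 8 were positive (0.06), with 0 counted in all 4 lists. The sign of the oligodendrocyte list was not the same in every group: its mean differed by -0.50 in F2 saline and -0.094 in F1 saline but by 0.14 in F1 METH and 0.079 in F2 METH mice, and its median became 0.021 without F2 saline replicate 4. Mbp, myelin basic protein, was at 3093 to 5046 CPM in the high and 3293 to 6095 CPM in the low libraries. Genes of the ventricle wall were variable. Of 10 ependymal genes 9 were negative (median -0.43, -0.087 without F1 saline replicate 4, -0.22 without F1 saline replicate 3 or F2 METH replicate 2), and the group differences ran from -1.25 in F2 METH to 0.18 in F1 METH mice. Foxj1, the master factor of motile cilia, was at 3.07 to 8.53 CPM in the high and 4.05 to 14.1 CPM in the low libraries.

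**Figure D4:**
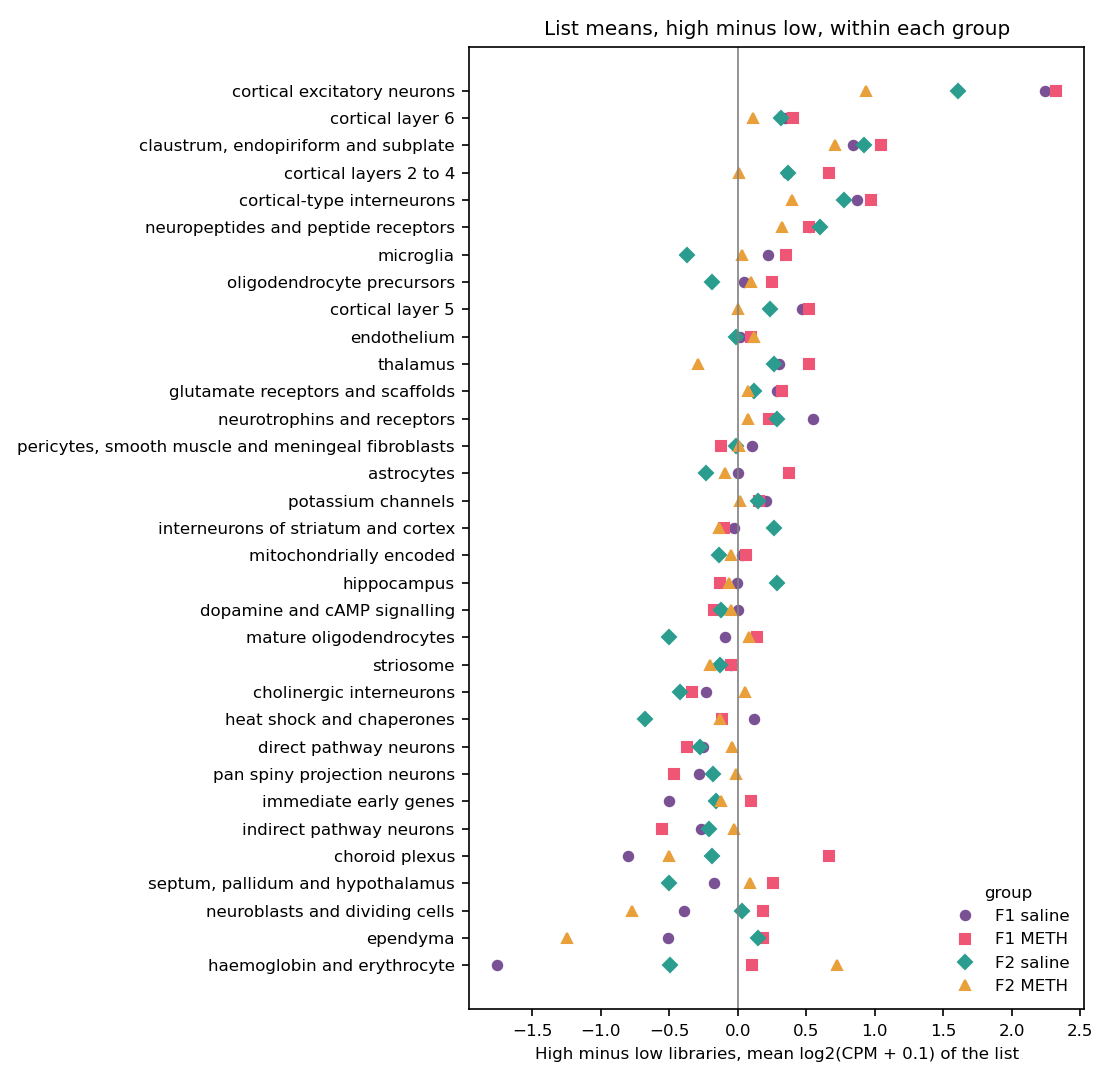
Difference in mean log2(CPM + 0.1) between high and low libraries within each of the 4 groups (1 symbol per group), for 33 gene lists ordered by the median difference of their members from the blocked model. The cortical excitatory list lies at 0.94 to 2.33 in the 4 groups, the claustrum, endopiriform and subplate list at 0.71 to 1.04, and the pan spiny projection neuron list at -0.46 to -0.015; the haemoglobin list scatters from -1.76 to 0.72.

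Some genes of signalling families studied in the striatum also differed between the classes. Bdnf (gene ID 12064, chromosome 2, 109674700 to 109727043), the brain-derived neurotrophic factor that cortical neurons make and supply to the striatum, was at 12.0 CPM in F1 saline replicate 3, 8.85 in F1 saline replicate 1, 6.83 in F1 METH replicate 3, 6.35 in F2 saline replicate 4 and 4.08 in F2 METH replicate 2. The low libraries were at 0.131 to 2.75 CPM with a median of 0.827, without overlap, and the log2 difference was 2.80 (SE 0.51). Of 14 kept neurotrophin and receptor genes it was the 1 that was counted (list median 0.02). Gfra2, the neurturin receptor subunit, had a difference of 1.34 (SE 0.30), with 7.67 to 32.4 CPM in the high and 3.07 to 8.05 CPM in the low libraries.

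Of 24 glutamate receptor and scaffold genes, 15 were positive and 2 were counted as higher (median 0.04). Grm2, a presynaptic metabotropic receptor, was at 3.52 to 21.3 CPM in the high and 0.970 to 4.19 CPM in the low libraries (2.03, SE 0.40), and Shank1, a postsynaptic scaffold, at 244 to 457 and 104 to 236 CPM (1.07, SE 0.21). Of 24 potassium channel genes, 10 were positive and 2 were counted. These were Kcnj6, the inward rectifier GIRK2, at 11.3 to 43.8 and 2.07 to 11.0 CPM (2.03, SE 0.42), and the background leak channel gene Kcnk9, at 52.6 to 108 and 18.0 to 49.3 CPM (1.19, SE 0.22). For Shank1, Kcnj6 and Kcnk9 every high library exceeded every low one.

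Of 22 genes of neuropeptides and their receptors, 14 were positive and 5 were counted as higher, namely Cck, the relaxin receptor Rxfp1, the corticotropin-releasing hormone binding protein Crhbp, the cholecystokinin receptor Cckbr and the somatostatin receptor Sstr2. Rxfp1 was at 2.51 to 6.25 CPM in the high and 0.384 to 3.82 CPM in the low libraries (1.84, SE 0.38). Cckbr was at 12.6 to 24.0 and 4.10 to 9.77 CPM (1.14, SE 0.18). Adcyap1, encoding PACAP, was at 1.27 to 6.98 CPM in the high libraries and at 3.62 CPM in F1 saline replicate 2, against at most 0.626 CPM in the other 9 low libraries, and was not counted. Of 19 kept dopamine and cAMP signalling genes 6 were positive and 0 were counted, and of 18 immediate early genes 2 were positive and 0 were counted (median -0.25). The immediate early gene median was -0.39 without F1 saline replicate 1, -0.14 without F1 saline replicate 3 and -0.11 without F2 saline replicates 2 and 3. All 20 heat shock and chaperone genes were negative (median -0.17). The heat shock median was -0.10 without F2 saline replicates 2 and 3, the libraries with the highest heat shock means, and -0.06 without F2 saline replicate 4.

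The remaining genes with the largest positive differences among those of at least 5 CPM were Ccn3, Bmp3 and Prss12. Ccn3, a secreted matricellular protein, was at 9.81 to 36.6 CPM in the high and 1.53 to 5.32 CPM in the low libraries (2.40, SE 0.30). Bmp3, a bone morphogenetic protein, had a difference of 2.35 (SE 0.42), and Prss12, the synaptic protease neurotrypsin, one of 2.25 (SE 0.38).

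On the lower side, Lyrm7 (gene ID 75530, chromosome 11, 54826866 to 54860921), an assembly factor of mitochondrial complex III, was the 1 gene of the 8 with a mean of at least 5 CPM in the low libraries. It was at 9.23 CPM in F1 saline replicate 1, 9.05 in F1 METH replicate 3, 8.78 in F1 saline replicate 3, 8.03 in F2 saline replicate 4 and 4.10 in F2 METH replicate 2. The low libraries ran from 7.33 CPM in F2 METH replicate 3 to 16.5 CPM in F1 METH replicate 2, with 9.47 CPM in F1 saline replicate 2. The classes overlapped over all libraries but not within a group, and the log2 difference was -0.76 (SE 0.12).

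The spread between animals was described with and without the class, with no test. In a principal component analysis of log2 CPM centred within groups, the first component held 20.4% of the variance. All 5 high libraries had positive scores on it (46.7 in F1 saline replicate 3, 46.6 in F1 METH replicate 3, 30.9 in F2 saline replicate 4, 13.1 in F2 METH replicate 2 and 6.30 in F1 saline replicate 1), and the low libraries ran from -44.8 to 2.60. The common biological coefficient of variation, the typical relative spread between animals, was 0.216 in F1 with lineage alone and 0.178 with the class added. In F2 the values were 0.168 and 0.159.

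In F1 the high class held 2 of 4 saline and 1 of 3 METH libraries, and in F2 1 of 4 of each. The METH lineage comparison was repeated with the class as a term. The lineage was not used in choosing the classes, so this comparison was tested. With the class in the model, edgeR's quasi-likelihood test with Benjamini-Hochberg adjustment called 0 of 18499 genes in F1 (0%, smallest adjusted p = 0.708) and 0 of 18093 in F2 (0%, smallest adjusted p = 0.251). With an unadjusted p under 0.05, edgeR found 1119 genes (6.05%) in F1, against 774 (4.18%) without the class term. In F2 it found 938 (5.18%), against 863 (4.77%). With no lineage difference a share near 0.05 would be found on average, but a single set of libraries can lie away from it. With 1 library left out the share ran from 2.47% to 8.98% in F1 and from 3.77% to 6.12% in F2. With the class term DESeq2's Wald test called 19 genes in F1 and 11 in F2, and limma-voom 3 and 1. Among genes described below, the Wald test called Bcas1, Myo5c, Prom1 and Nt5c1a in F1 and Zfp729a, Lyrm7 and Psmc3ip in F2. It called Bdnf and Nts in neither generation.

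With 1 library left out, edgeR called few genes, of which only Psmc3ip was among those named beforehand. In F1 these were Gm42048 without F1 saline replicate 1, Grin1os without F1 saline replicate 2, and Gm8399 and Nvl without F1 METH replicate 1. In F2 they were Gm11843 without F2 saline replicate 3, Gm5182 without F2 saline replicate 4 or F2 METH replicate 2, and Psmc3ip without F2 METH replicate 1. With all high libraries left out, edgeR called 1 gene in F1 (Gm42048) and 1 in F2 (Gm5182).

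Of the 33 lists, the cortical excitatory list had the lineage difference that moved most with the class term in each generation. It was also the list with the largest difference between the classes, so this is a description and not a separate result. In F1 the median of the cortical excitatory list was -0.49 without the term, with 15 of 17 genes lower in METH mice, and -0.20 with it, with 13 of 17 lower. Among the low libraries alone it was -0.10. In F2, where each lineage held 1 high library of 4, the same median was 0.06 without the term and 0.19 with it. Among the low F2 libraries alone it was 0.30. The spiny projection neuron list in F1 went from 0.13 (23 of 26 genes higher) to 0.07 (16 of 26 higher), and the indirect pathway list from 0.19 to 0.10. The haemoglobin list in F1 went from -1.15 to -0.94. The mature oligodendrocyte list was at 0.28 without and 0.27 with the term in F1, and at -0.14 and -0.13 in F2. In these lists 0 genes were called.

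**Figure D5:**
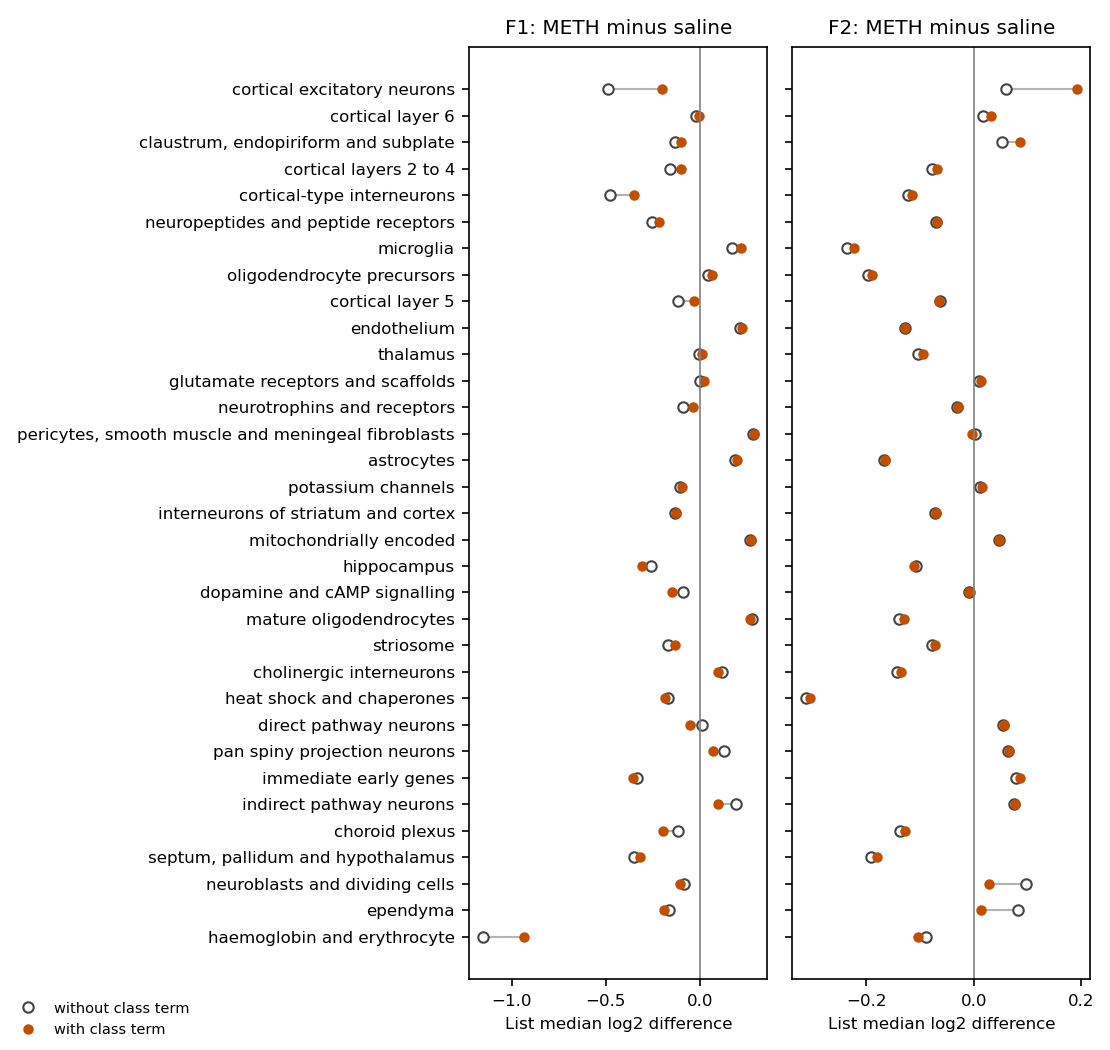
Median log2 METH minus saline difference of the members of 33 gene lists in F1 (left) and F2 (right), without (open circles) and with (filled circles) the class as a term; the 2 panels have different horizontal scales. The cortical excitatory list moves from -0.49 to -0.20 in F1 and from 0.06 to 0.19 in F2, while the glial and vascular lists barely move.

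Bdnf, counted above as higher in the high class, also moved with the class term. In F1 it was at 0.131, 2.75, 8.85 and 12.0 CPM in saline mice and at 0.726, 0.928 and 6.83 CPM in METH mice, the highest value of each lineage coming from a high library. Its METH minus saline difference in F1 was -1.07 (SE 1.15) without the class term and -0.70 (SE 0.66) with it (edgeR quasi-likelihood, Benjamini-Hochberg adjusted p = 0.882), and 0.31 without F1 saline replicate 2. In F2, with 1 high library in each lineage, it was 0.04 (SE 0.94) without the term and 0.67 (SE 0.65) with it (edgeR adjusted p = 0.949).

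In F1 the differences of the genes with the smallest p moved less with the class term than that of Bdnf. They were picked by p in the fit with that term. Bcas1, a gene of premyelinating and myelinating oligodendrocytes, was at 184 to 207 CPM in the 4 saline and 239 to 316 CPM in the 3 METH libraries. Its difference was 0.50 (SE 0.08) with and 0.47 (SE 0.10) without the class term (edgeR adjusted p = 0.708 with the term). Myo5c, an unconventional myosin, was at 2.68 to 5.00 CPM in saline and 6.93 to 8.90 CPM in METH mice. Its difference was 1.13 (SE 0.16) with and 1.01 (SE 0.23) without the term (edgeR adjusted p = 0.708 with the term). For both the lineages did not overlap, which their choice by small p favours, so it is only a description. Both missed the threshold in edgeR. Prom1, prominin-1, had a difference of 0.64 in either fit. Nt5c1a, a cytosolic nucleotidase, had one of -0.92 with and -0.98 without the term. Among the low libraries alone the F1 differences were 0.41 for Bcas1, 1.28 for Myo5c, 0.50 for Prom1 and -0.80 for Nt5c1a.

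In F2, Zfp729a, a zinc finger gene, had a difference of -0.83 in both fits and -0.82 among the low libraries alone (edgeR adjusted p = 0.251 with the term). It was at 31.7 to 45.5 CPM in saline and 19.5 to 22.1 CPM in METH mice. Lyrm7, counted above as lower in the high class, was also at lower values in F2 METH mice, at 4.10 to 9.03 CPM against 8.03 to 14.7 CPM in saline. Its lineage difference was -0.73 (SE 0.24) without and -0.75 (SE 0.11) with the class term (edgeR adjusted p = 0.383 with the term). Nts, the peptide neurotensin, had a difference of -0.73 without and -0.69 with the term in F2, and of -1.35 and -1.39 in F1, where F1 saline replicate 2 alone was at 14.98 CPM. Without that library the F1 difference with the term was -0.60.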

How the data were processed

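The labels give 15 striatal libraries from mice of 2 generations, grouped by sample title. The submitters' processing notes name build mm10, StringTie 2.1.3b, HISAT2 2.1.0, Trimmomatic and bcl2fastq 2.20.0. Settings and strandedness are not given in the sources here, so overlapping genes cannot be told apart. The deposited tables, 1 per generation, hold the authors' counts, FPKM and TPM for 45777 features. The deposited counts are whole numbers and were used unchanged. TPM served for per-length ranges and as an alternative on log2(TPM + 1) and log2(TPM + 0.1), and the authors' FPKM were not used. Names matched all 45 value columns to samples.

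The 2 tables were joined by gene ID. The class was set by Slc17a7 above 110 CPM. The members, lists and rules were chosen with earlier results of these data known. Log2 differences came from edgeR 4.0.16 (glmQLFit, TMM, filterByExpr with a minimum count of 10) in R 4.3.3, with the 4 groups as a block for the class, and lineage plus class within each generation for METH minus saline (glmQLFTest, Benjamini-Hochberg adjusted p under 0.05). List means used log2(CPM + 0.1). DESeq2 1.42.0, limma 3.58.1, other filters, each library left out and a replicate block were alternatives. Added after seeing the data were a threshold of 90 CPM and a fit without F2 saline replicates 2 and 3. Named genes were the 12 with the largest difference per direction among counted genes of at least 5 CPM, up to 4 per list by size of difference, a fixed set of markers, the 10 most like Slc17a7, and for METH the 3 smallest p per direction and 11 genes named by earlier results, skipping predicted genes, clones and pseudogenes. The tables held all 438 list memberships by symbol, and the 33 lists are those plotted. Positions are from RefSeq for GRCm38.p6, the same build as mm10. Replicate pairs differed by more than sampling noise (chi-square per degree of freedom 15 to 60.4), so each library counts once, and p-values measure the spread between these animals, which may share litters. The class fit and the METH minus saline fit in F2 were tested on simulated counts, with less spread between animals than in these data. Figures used Python 3.11.15 and matplotlib 3.10.9. Some genes that the naming rule covers are not reported here.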

Additional observations from a re-analysis of the deposited data

Results flagged for a closer look

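In 6 of 94 sets of libraries of 1 class that were looked at, 1 library stood far from the others by Dixon's criterion, which chance meets in about 1 in 20 sets. Among the 10 low libraries, F1 saline replicate 2 had the highest mean log2(CPM + 0.1) of the cortical-type interneuron list (3.15, next 2.63), of the list of interneurons shared by striatum and cortex (4.45, next 4.06) and of the neuropeptide and receptor list (4.71, next 4.33). Its Cck level of 27.7 CPM was also far above the next low library (13.7 CPM). It is the low library with the most Slc17a7. F1 saline replicate 4 had the highest haemoglobin list mean, 6.69 against 4.56 in the next low library. Among the 5 high libraries, F2 METH replicate 2 had the least Lyrm7, 4.1 CPM against 8.03 CPM in the next.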

How the results depend on the processing

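Of the counts of genes by class (199 higher, 8 lower), the higher count was 643 in F1 alone, 379 in F2 alone, 88 with no group block, 125 on log2(TPM + 1) and 120 with a 2-fold minimum. The lower count was 270, 151, 1, 2 and 4 under the same settings, 17 without F2 saline replicates 2 and 3, and 19 with the threshold at 90 CPM. With each library left out in turn the counts were 199 to 408 higher and 7 to 72 lower. The cortical excitatory median (2.53) was 1.25 in F2 alone and 1.02 on log2(TPM + 1), which compresses low genes, and 2.01 to 2.97 with 1 library left out. The spiny projection neuron median (-0.23) lay between -0.28 and -0.17 with 1 library left out.

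For METH minus saline with the class term (0 called in each generation), the count in F1 was 1 with high libraries left out, 19 by DESeq2's Wald test, 3 by limma-voom, 3 with the replicate block and 0 to 2 with 1 library left out. In F2 it was 1, 11, 1, 0 and 0 to 1. In F2 the differences of Prom1 and Tac2 changed sign with the high libraries left out, to 0.031 and 0.014. With 1 library left out, differences that changed sign ranged from -1.10 to 0.31 for Bdnf and from -0.33 to 0.18 for Zfp729a in F1. In F2 they ranged from -0.0016 to 0.41 for Fos, from -0.021 to 0.13 for Dnmt3a, from -0.12 to 0.031 for Prom1, from -0.78 to 0.014 for Tac2 and from -0.0061 to 0.23 for Sorcs3. The cause was not tested.

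Of the same-numbered pairs, F1 saline and F1 METH replicate 3, both in the high class, deviated together (correlation of deviations 0.352). The other pairs did not (-0.0076 and 0.0592 in F1, -0.0711 to 0.0367 in F2). In the labels the F1 replicate 3 samples share the replicate number of the title, but their animal numbers are 6 and 9. Animal numbers match in F1 replicate 2 (animal 3, correlation 0.0592) and in F2 replicate 3 (animal 6, correlation -0.0544). The deviations were from group means, with no term for the class. Whether same-numbered samples share a litter or handling was not tested. With the replicate block, 191 genes were higher and 8 lower by class, and the medians were 2.17 (cortical) and -0.18 (spiny projection neurons).

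Genes near 1 CPM rest on few counts per library, so their ratios are the least precise. Each group has only 1 or 2 high libraries, the threshold cuts a continuous range of Slc17a7, and generation coincides with the table.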
